A study of Phaseolus vulgaris with 12 samples.

Results

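The genes described here are the 200 bean leaf genes whose transcript level was lowest under drought relative to well-watered leaves. They were picked from the 13149 genes, of 27996 in the deposited tables, that had at least 5 TPM (each gene's share of the transcripts of a library, scaled to a fixed total and corrected for gene length) in each of the 6 well-watered libraries. The mean of the 3 drought polymer libraries plus 0.1 TPM was divided by the mean of the 6 well-watered libraries plus 0.1 TPM, and the 200 lowest ratios were taken, with 2 genes that the study names by identifier left out. Because these measured values chose the genes, the difference between drought polymer and well-watered leaves is given as a description without a test. Exon number, position, reads on introns and the level in the drought 6PP library played no part in the choice.

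The plants were dwarf bean (Phaseolus vulgaris, genotype Dwarf Messi), raised from seeds that carried a coat of polymer alone or of polymer holding 114 mM 6PP. 6PP (6-pentyl-alpha-pyrone) is a volatile lactone made by Trichoderma fungi. The 4 groups were drought 6PP, drought polymer, well-watered 6PP and well-watered polymer, and drought meant about 16 days without irrigation, started when the second trifoliate leaf had developed. Every library came from trifoliate leaves of 5 plants pooled before RNA extraction, with 3 replicates to a group, and leaves were taken once the unwatered plants wilted. Of the 12 samples, 10 were used, because among the drought 6PP samples only replicate 3 had a file with a single table. The same table, equal in every cell, also stands in the file of replicate 2, so which of these pools it came from is uncertain, and it is called replicate 3 here. The groups follow the sample titles and treatment labels, while 1 further label on growth reads the same for all 12 samples, as a drought 6PP plant. The 10 libraries had between 39974999 and 55648172 reads on genes. More than 1 growth chamber is mentioned in the study's methods, with no word on which water regime stood in which, so chamber and regime cannot be told apart here.

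When water is withheld, leaves close their stomata, carbon uptake drops and expansion growth slows. In many plants, transcripts for photosynthesis and for growing cell walls decline at the same time, while those for protective proteins accumulate. Aquaporins, the membrane channels that carry water and other small solutes between cells, are another family whose transcripts respond to water supply. In a pooled leaf sample, a low transcript level can come from fewer cells of a type or from less RNA in each cell, and these cannot be told apart. None of the 200 identifiers could be found in the table of bean gene names at hand, and 1 of the 200 genes has a symbol of its own in the files. No gene sequence was used, and the other 199 genes are described by what was measured.

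Tissue identity was checked on 6 light-harvesting genes that the study names, which encode the proteins that hold antenna chlorophyll. Their transcripts stood between 405 and 6543 TPM in the well-watered libraries. On the ratio used for the choice they were 15.1 to 107-fold lower in drought 6PP replicate 3, and 4.26 to 11.8-fold lower in drought polymer, than in well-watered leaves. As genes that the study names, these 6 could not be among the 200. In the ranking of all eligible genes the first of them stood at place 295. Markers of other leaf cell types could not be listed, since the files pair too few identifiers with names.

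Together, the 200 genes made up a small part of the transcript pool of droughted leaves and a sizeable part of that of watered leaves. Their summed level was 689 TPM in drought 6PP replicate 3 and 848, 813 and 969 TPM in drought polymer replicates 1, 2 and 3, against 29985 to 38372 TPM in the 6 well-watered libraries. Expressed as a share of all transcripts, this was 0.0689% in drought 6PP replicate 3, between 0.0813% and 0.0969% in drought polymer, and between 3.00% and 3.84% in well-watered leaves. The median gene of the 200 had 0.325 TPM in drought 6PP replicate 3 and 0.521, 0.545 and 0.680 TPM in drought polymer, against 25.2 to 37.0 TPM in well-watered leaves. The groups did not overlap. All 200 had each drought polymer library below all 6 well-watered libraries, a description that the choice itself favours, where 28.4% of the 13149 genes did so.

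**Figure D1:**
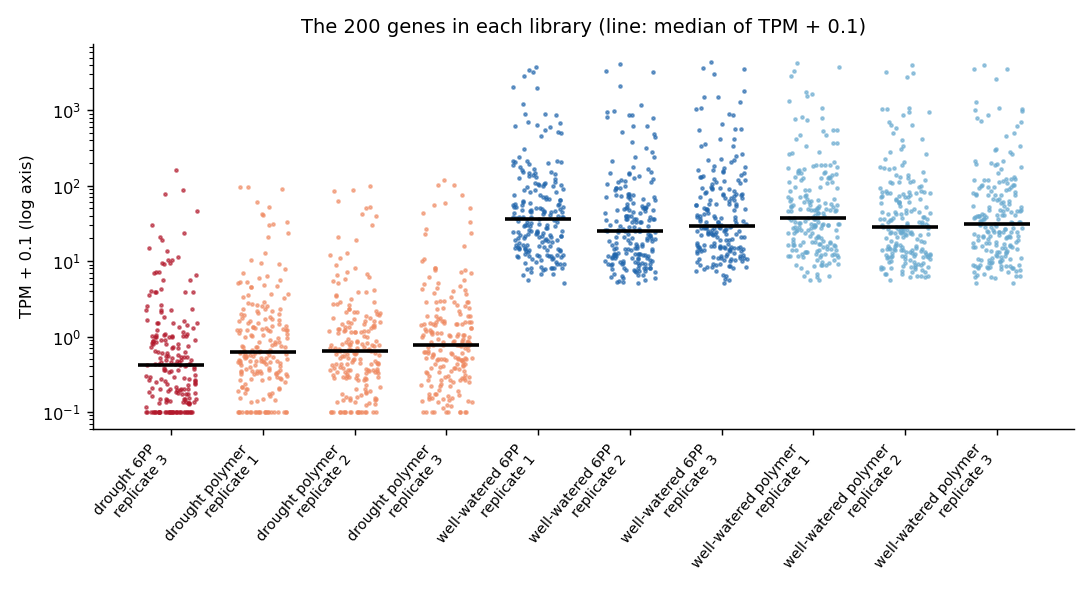
Level of each of the 200 genes (1 point per gene, TPM + 0.1 on a log axis) in drought 6PP replicate 3, the 3 drought polymer libraries, the 3 well-watered 6PP libraries and the 3 well-watered polymer libraries, with a line at the median. The drought libraries have medians of 0.325 to 0.680 TPM before 0.1 is added and hold many points at the bottom of the axis, at 0 TPM. The well-watered medians lie between 25.2 and 37.0 TPM.

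Few reads lay behind the drought values. A median of 12 reads per gene was counted in drought 6PP replicate 3 and 23, 21 and 23.5 in drought polymer, against 960.5 to 1455.5 in the well-watered libraries. No read at all was counted for 34 of the 200 genes in drought 6PP replicate 3 and for 24, 14 and 8 in drought polymer replicates 1, 2 and 3, whereas every one had reads in all 6 well-watered libraries. Differences between drought libraries at single genes were not tested, and at many of the lowest genes they rest on few reads.

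Not all of the 200 were close to silent. Levels stayed under 1 TPM in all 4 drought libraries for 103 of the 200, and 34 had at least 1 TPM in all 4. In drought 6PP replicate 3, 152 genes lay under 1 TPM, 35 between 1 and 10 TPM and 13 at 10 TPM or above. In the mean of drought polymer, 125 lay under 1 TPM, 60 between 1 and 10 TPM and 15 at 10 TPM or above. The word silenced is thus a loose one for the group, since only 3 of the 200 had no read in all 4 drought libraries. These are transcript levels, and transcription itself was not measured. Among all 13149 genes, 3.93% lay under 1 TPM in drought 6PP replicate 3.

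The limit of 200 genes cut a continuous ranking. The fold by which a gene was lower in drought polymer, on the ratio used for the choice, had a median of 33.0 over the 200 genes and ran between 17.0 and 1725. The last genes taken were PHAVU_002G092200g at 17.2-fold, PHAVU_003G295200g at 17.0-fold and PHAVU_004G0983000g at 17.0-fold lower. Just beyond them stood PHAVU_010G053000g at 16.9-fold, PHAVU_005G058600g at 16.8-fold and PHAVU_005G041000g at 16.7-fold lower. Nothing in these values separates one side of the limit from the other. Of the 200, 39 were at least 100-fold and 3 at least 1000-fold lower in drought polymer. In an edgeR fit of read counts over all genes, 185 of the 200 met the study's 3 criteria as lower in drought polymer than in well-watered polymer leaves, beside 7.2% of all genes tested, and nothing is read from that count.

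To see the decline in libraries that had no part in the choice, the 200 lowest genes were picked again without one replicate number and then read in the libraries left out. Chosen without replicate 1, the new 200 genes shared 179 with the list and were a median of 42.2-fold lower in drought polymer replicate 1 than in the well-watered replicate 1 pair. Picked without replicate 2 they shared 185 and were 38.1-fold lower in the left-out libraries, and without replicate 3 they shared 188 and were 33.2-fold lower. In each case all 200 genes were at least 2-fold lower in the left-out drought library, beside 15.9%, 16.8% and 14.3% of the eligible genes. Each re-picked list, not quite the same 200 genes, was thus lower in the drought polymer library that had not chosen it. The left-out pools came from the same experiment, so this does not separate water regime from chamber.

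The transcript at the head of the ranking was PHAVU_010G129900g, a gene of 1 exon on chromosome 10, 39982780 to 39983851 on the minus strand as the files list it. It had 0.872 TPM in drought 6PP replicate 3 and 0.332, 0.348 and 1.38 TPM in drought polymer, against a lowest value of 871, a median of 1279 and a highest value of 2055 TPM in well-watered leaves. The mean was 0.686 ± 0.599 TPM in drought polymer (SD, n = 3) and 1356 ± 462 TPM in well-watered leaves (SD, n = 6), a ratio of 1725-fold. The 4 drought values were low throughout and none came near a watered one.

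Second came PHAVU_003G131400g, also of 1 exon (chromosome 3, 32093599 to 32094587, minus strand). Its level was 0.0363 TPM in drought 6PP replicate 3 and 0.252, 0.189 and 0.0393 TPM in drought polymer, against 238 to 636 TPM with a median of 333 TPM in well-watered leaves. These drought levels stand on 2 reads in drought 6PP replicate 3 and 7, 5 and 2 reads in drought polymer. From the reads alone it was 5148-fold lower in drought 6PP replicate 3 than in well-watered leaves, with a 95% exact Poisson interval of 1425 to 42511-fold that covers counting error only. The interval leaves the size open by more than an order of magnitude.

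PHAVU_002G212200g (chromosome 2, 37427894 to 37428889, plus strand, 1 exon) had 0 reads in all 4 drought libraries. In well-watered leaves it ran between 28.3 and 189 TPM with a median of 100.2 TPM, the largest ratio of highest to lowest watered library among the 10 leading genes (6.69-fold). Taking 3 reads as the most that a count of 0 allows, it was at least 936-fold lower in drought 6PP replicate 3 and, over the 3 libraries together, at least 2915-fold lower in drought polymer. Of the 200 genes, 5 had no read in any drought polymer library. The other 4 were at least 1489-fold lower (PHAVU_011G191900g), 681-fold lower (PHAVU_010G146400g), 665-fold lower (PHAVU_008G137700g) and 355-fold lower (PHAVU_005G066000g) in drought polymer than in well-watered leaves. Besides PHAVU_002G212200g, PHAVU_008G137700g and PHAVU_005G066000g also had 0 reads in drought 6PP replicate 3, while PHAVU_011G191900g had 5 and PHAVU_010G146400g had 9.

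The next 3 genes of the ranking have 1 or 2 exons. PHAVU_009G092000g (1 exon, 793 bases) had 0.272 TPM in drought 6PP replicate 3 and 1.12, 0.188 and 0.147 TPM in drought polymer, against 308 to 571 TPM with a median of 443 TPM in well-watered leaves. PHAVU_003G166500g (2 exons, 906 bases) had 4 reads in drought 6PP replicate 3 and 4, 0 and 0 in drought polymer, against 77.6 to 132 TPM in well-watered leaves. PHAVU_008G175300g (2 exons, 2236 bases) had 6 reads in drought 6PP replicate 3 and 2, 0 and 2 in drought polymer, against 52.2 to 89.5 TPM in well-watered leaves. In these genes too the watered libraries formed one block well above the drought libraries.

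PHAVU_004G021000g (1 exon, chromosome 4, 2179227 to 2180360) had 1 read in drought 6PP replicate 3 and 0, 0 and 1 in drought polymer, against 16.1 to 93.9 TPM in well-watered leaves. Its reads made it 1693-fold lower in drought 6PP replicate 3 than in well-watered leaves, with an exact Poisson interval of 304 to 66872-fold. PHAVU_001G050300g (1 exon) had 0.449 TPM in drought 6PP replicate 3 and 0.567, 0.212 and 0.530 TPM in drought polymer, against 93.2 to 502 TPM in well-watered leaves. The drought values of this gene rest on 11 reads in drought 6PP replicate 3 and 14, 5 and 12 in drought polymer, while the watered ones spread more than 5-fold. PHAVU_011G209600g (2 exons) varied least under drought among those of the 10 with reads in every drought library, with 0.324 TPM in drought 6PP replicate 3 and 0.375, 0.336 and 0.292 TPM in drought polymer, against 77.0 to 337 TPM in well-watered leaves.

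Some of the 200 were among the most abundant transcripts of the watered leaf. A well-watered mean of 100 TPM or more was found for 47 of the 200 (23.5%, beside 11.6% of the 13149 genes) and one of 1000 TPM or more for 8 (4%, beside 0.821%). The median of the well-watered means was 30.5 TPM for the 200 and 23.4 TPM for the 13149. The well-watered mean is part of the ratio, and with 0.1 TPM added only abundant genes can reach the largest folds. The choice itself thus favours abundant genes, and nothing is read from these shares. PHAVU_002G154500g was the most abundant (1 exon, chromosome 2, 29612297 to 29613509, minus strand), with 3.76 TPM in drought 6PP replicate 3 and 52.3, 84.1 and 103 TPM in drought polymer, against 3339 to 4455 TPM with a median of 4011 TPM in well-watered leaves. Only 0.00445% of its reads were placed at 1 gene alone, so its level is shared with at least 1 near-identical copy and its share of it is uncertain.

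PHAVU_004G013500g, with 15 exons (chromosome 4, 1424236 to 1429164, plus strand), had uniquely placed reads. It stood at 13.6 TPM in drought 6PP replicate 3 and 90.3, 52.0 and 58.6 TPM in drought polymer, against 3135 to 4156 TPM with a median of 3584 TPM in well-watered leaves. Its drought 6PP library lay below all 3 drought polymer libraries. PHAVU_004G014200g (4 exons, chromosome 4, 1483531 to 1485907, minus strand) had 76.6 TPM in drought 6PP replicate 3 and 96.9, 100.5 and 101 TPM in drought polymer, against 3194 to 3596 TPM in well-watered leaves, the last a narrow band. Neither gene was close to silent under drought, since 2854 reads were counted on PHAVU_004G014200g in drought 6PP replicate 3 and 3611, 3605 and 3465 in drought polymer.

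PHAVU_009G059000g (5 exons, chromosome 9, 10600501 to 10602389, plus strand) kept the highest level of the 200 in the drought 6PP library. It had 160 TPM in drought 6PP replicate 3 and 95.6, 87.3 and 118 TPM in drought polymer, against 2128 to 3044 TPM with a median of 2841 TPM in well-watered leaves. The drought 6PP value stood above all 3 drought polymer values, and 6PP libraries and polymer libraries of watered leaves overlapped. PHAVU_006G202700g (1 exon, 747 bases, chromosome 6, 30681855 to 30682601, plus strand) stood at place 5 in abundance and at place 9 in the ranking. Its level was 0.192 TPM in drought 6PP replicate 3, from 4 reads, and 4.53, 2.25 and 2.81 TPM in drought polymer, against 1034 to 2000 TPM with a median of 1480 TPM in well-watered leaves.

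**Figure D2:**
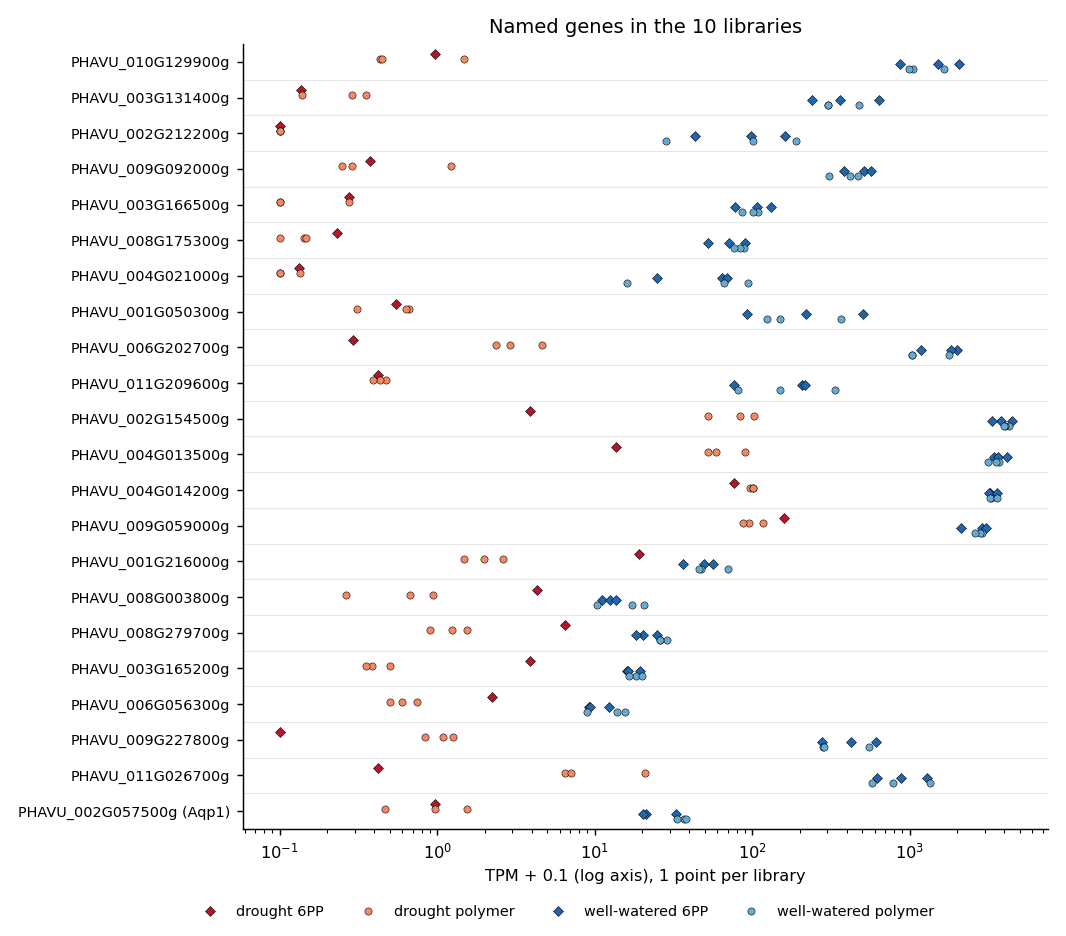
Level of the genes named in the text (TPM + 0.1, log axis) with 1 point per library, coloured by group, for the 10 lowest of the ranking, the most abundant, the 5 highest and 5 lowest ratios in drought 6PP replicate 3, and Aqp1. In every row the drought points lie left of the well-watered points, and in PHAVU_001G216000g the drought 6PP point at 19.1 TPM comes nearest to the watered points, which start at 36.4 TPM.

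Aqp1 (PHAVU_002G057500g, 3 exons, chromosome 2, 5893704 to 5895921, minus strand) was the 1 gene of the 200 with its own symbol, which is that of an aquaporin. It had 0.876 TPM in drought 6PP replicate 3 and 0.367, 0.874 and 1.46 TPM in drought polymer, against 20.1 to 37.8 TPM with a median of 33.0 TPM in well-watered leaves. The drought 6PP library lay within the drought polymer range, and the ratio to the watered mean was 31.2-fold lower in drought 6PP replicate 3 and 30.4-fold lower in drought polymer. Another aquaporin, TIP1:1 (PHAVU_001G181100g), which belongs to the tonoplast family that sits in the vacuolar membrane, was ranked at place 341 and so was not one of the 200. It had 57.7 TPM in drought 6PP replicate 3 and 67.7, 95.1 and 97.9 TPM in drought polymer, against 595 to 1170 TPM in well-watered leaves.

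The drought 6PP library had not been used in the choice, and it asks whether the same genes were low in a droughted leaf pool from 6PP-coated seeds. It is a single library, so its values carry no replicate error and no test. It also stood apart from the other 9 libraries over all genes: the median log2 ratio to the well-watered mean over the 13149 genes was -0.22 in drought 6PP replicate 3 and 0.05 to 0.14 in drought polymer, and introns took 8.81% of the reads of those with 2 or more exons in drought 6PP replicate 3, against 5.07% to 6.62% in the other libraries. The part of these differences in what follows was not tested.

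All 200 genes were at least 2-fold lower in drought 6PP replicate 3 than in well-watered leaves, where 25.1% of the 13149 genes were. At least 10-fold lower were 189 of the 200, beside 6.01%, and at least 100-fold lower were 80, beside 0.905%. Every one of the 200 lay below all 6 well-watered libraries, beside 48.2% of the 13149. The median log2 ratio was -6.25 in drought 6PP replicate 3 (76.0-fold lower) and -5.04 in drought polymer (33.0-fold lower), the second of these fixed by the choice. With 1 TPM added in place of 0.1 TPM the folds were 20.5 in drought 6PP replicate 3 and 17.1 in drought polymer, so both sizes and most of the gap between them depend on how levels near 0 are treated. Both comparisons share the well-watered libraries, so their likeness is not independent. Within the 200 genes the fold in drought 6PP replicate 3 ran between 2.66 and 5049.

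**Figure D3:**
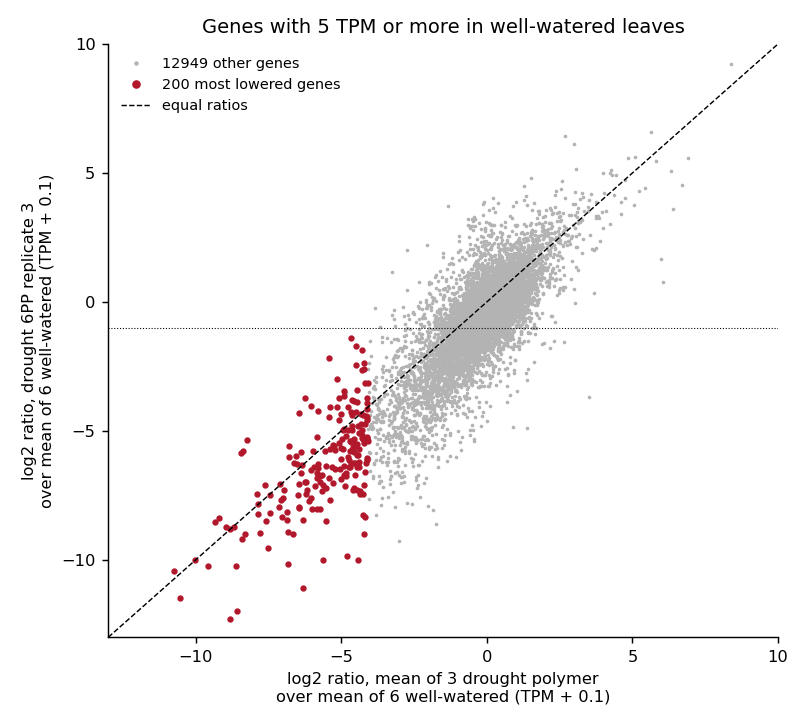
Log2 ratio to the well-watered mean for each gene with at least 5 TPM in well-watered leaves, with the mean of drought polymer across and drought 6PP replicate 3 upward (TPM + 0.1, dashed line at equal ratios, dotted line at 2-fold lower). The 200 genes lie at the left by their choice, all of them below the dotted line, with a median of -6.25 on the vertical axis.

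Set against drought polymer directly, the drought 6PP library was not uniformly lower at the 200 genes. It lay below all 3 drought polymer libraries for 105 of the 200 (52.5%, beside 65.6% of the 13149 genes), within their range for 52 (26%, beside 13.2%) and above all 3 for 43 (21.5%, beside 21.2%). At least 2-fold below the drought polymer mean were 87 (43.5%, beside 19.2%), and at least 2-fold above it were 24 (12%, beside 4.7%). The median log2 difference, drought 6PP replicate 3 over drought polymer, was -0.78 over the 200 and -0.37 over the 13149. The choice used the drought polymer values, so these shares are a description, and they come from 1 library.

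The 5 genes least lowered in drought 6PP replicate 3 were between 2.66 and 5.21-fold below the well-watered mean, and the next values of the ranking followed without a gap. PHAVU_001G216000g (2 exons, chromosome 1, 47934464 to 47936059, plus strand) had 19.1 TPM in drought 6PP replicate 3 and 1.88, 1.38 and 2.51 TPM in drought polymer, against 36.4 to 70.5 TPM with a median of 48.3 TPM in well-watered leaves. That is 2.66-fold lower in drought 6PP replicate 3 and 25.3-fold lower in drought polymer. With 848 reads in drought 6PP replicate 3 and 80, 56 and 100 reads in drought polymer, counting error is small beside this difference. Its neighbour PHAVU_001G216100g, also of 2 exons, had 9.01 TPM in drought 6PP replicate 3 and 2.11, 2.75 and 3.54 TPM in drought polymer, against 43.6 to 73.1 TPM in well-watered leaves. At both neighbours the drought 6PP value thus exceeded each drought polymer value.

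PHAVU_008G003800g (4 exons) had 4.22 TPM in drought 6PP replicate 3 and 0.165, 0.576 and 0.840 TPM in drought polymer, against 10.2 to 20.5 TPM in well-watered leaves. PHAVU_003G165200g (2 exons) had 3.81 TPM in drought 6PP replicate 3 and 0.284, 0.255 and 0.399 TPM in drought polymer, against 16.0 to 19.8 TPM in well-watered leaves. PHAVU_006G056300g (1 exon) had 2.12 TPM in drought 6PP replicate 3 and 0.405, 0.501 and 0.643 TPM in drought polymer, against 8.78 to 15.5 TPM in well-watered leaves. In all 3 the drought 6PP value lay between the drought polymer and the watered values without touching either. PHAVU_008G279700g, a gene of 10211 bases whose 20 exons are the highest number among the 200, had 6.42 TPM in drought 6PP replicate 3 and 0.801, 1.14 and 1.45 TPM in drought polymer, against 18.3 to 28.7 TPM in well-watered leaves. Its 1 drought 6PP library lay above all drought polymer libraries, and its 3 well-watered 6PP libraries below all well-watered polymer libraries. Opposite sides were found, without a test, for 4 of the 200 (2%, beside 3.23% of the 13149).

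At the other end, PHAVU_009G227800g (1 exon, chromosome 9, 33650737 to 33651892, minus strand) had 0 reads in drought 6PP replicate 3 and 0.986, 1.16 and 0.740 TPM in drought polymer, against 276 to 610 TPM in well-watered leaves. With 3 reads as the floor, it was at least 4180-fold lower in drought 6PP replicate 3 than in well-watered leaves. PHAVU_011G026700g (2 exons, chromosome 11, 2167596 to 2169586, plus strand) had 0.321 TPM in drought 6PP replicate 3 and 20.8, 6.42 and 6.93 TPM in drought polymer, against 577 to 1349 TPM with a median of 832 TPM in well-watered leaves. It was 2171-fold lower in drought 6PP replicate 3 and 79.6-fold lower in drought polymer. With PHAVU_006G202700g, PHAVU_003G131400g and PHAVU_010G129900g, these genes had the 5 lowest ratios in the drought 6PP library, and 4 of the 5 have a single exon.

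The coating was compared in well-watered leaves, where the rule made no distinction between 6PP and polymer. Read counts of the 10 libraries were fitted in edgeR with 4 group means and tested with its quasi-likelihood test, with p-values adjusted by Benjamini-Hochberg over all 22398 genes tested. Of the 200 genes, all of which were tested, 0 met the 3 criteria of the study (a log2 fold change of 0.6 or more in size, an FDR no higher than 0.01 and a Bonferroni-corrected p no higher than 0.05), as did 0% of all genes. At an unadjusted edgeR p under 0.05 there were 4 of the 200, beside 5.5% of all genes. DESeq2's Wald test called 0 of the 200 on the 3 criteria, beside 1 gene higher and 3 lower in 6PP among all 22398. The median log2 fold change, well-watered 6PP over well-watered polymer, was 0.00 over the 200 and 0.01 over all genes. No difference between coatings was detectable at these genes with 3 pools to a group, which does not show that the coatings act alike. The study, using other software, reports differentially regulated genes between the coatings in well-watered plants. The edgeR fit called none over all genes, so the 0 is not particular to the 200.

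The smallest adjusted p among the 200 belonged to PHAVU_008G121000g, a gene of 1 exon. It had 24.6, 16.2 and 22.9 TPM in well-watered 6PP leaves and 12.4, 11.4 and 8.49 TPM in well-watered polymer leaves, with a log2 fold change of 1.14 (SE 0.31) and an edgeR FDR of 0.813. The 2 sets of libraries did not overlap, as was so for 3 of the 200 with 6PP higher (1.5%, beside 2.86% of the 13149) and for 12 with 6PP lower (6%, beside 9.45%). In drought leaves the same gene had 0.698 TPM in 6PP replicate 3 and 0.415, 0.507 and 1.21 TPM in polymer.

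Watered leaves themselves differed widely at the 200 genes. Over the 6 well-watered libraries the coefficient of variation had a median of 20.0% for the 200 and 12.0% for the 13149, and the highest library stood a median of 1.71-fold above the lowest for the 200 and 1.38-fold for the 13149. It was widest, with a median of 30.6%, among the 50 most lowered genes and 17.4% among the last 50. Well-watered 6PP replicate 2 was the lowest of the 6 for 85 of the 200 (42.5%, beside 11.8%), and well-watered polymer replicate 1 the highest for 66 (33%, beside 26.7%).

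Replicate numbers of the 2 coatings moved alike at the most variable of these genes. Among the 50 of the 200 with the widest spread, between 2.21 and 17.6-fold, 38 (76%) had their highest value in a replicate 1 and their lowest in a replicate 2, whichever the coating. The same held for 79 of the 200 (39.5%) and for 10.7% of the 13149, and for 29.5% of the 562 genes among the 13149 with a spread of at least 2.21-fold. The median log2 distance to the well-watered mean over the 50 genes was 0.48, -0.73 and -0.09 in well-watered 6PP replicates 1, 2 and 3 and 0.60, -0.54 and -0.31 in well-watered polymer replicates 1, 2 and 3. The labels give no date, tray or chamber for a replicate number, and over all genes same-numbered libraries did not deviate together closely enough to be treated as pairs.

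**Figure D4:**
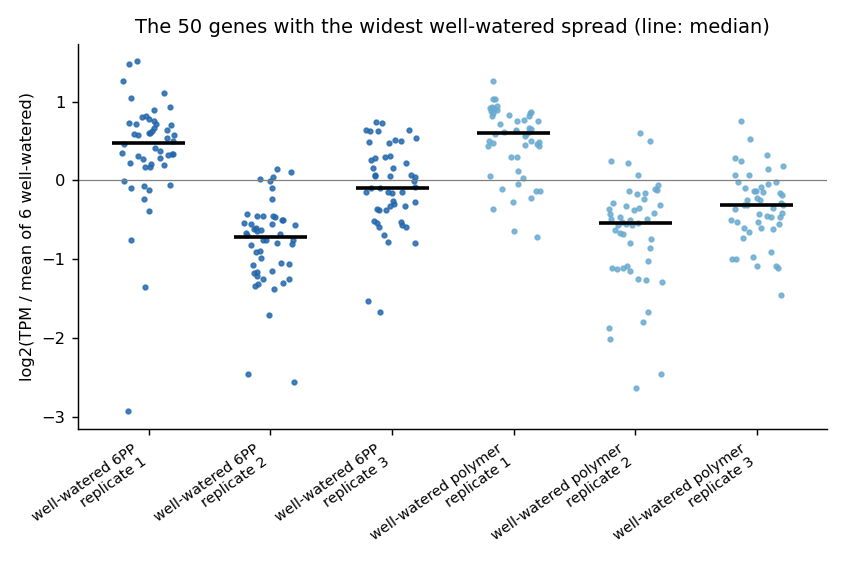
The 50 of the 200 genes with the widest spread in well-watered leaves, as log2 of the TPM over the well-watered mean of the gene, with well-watered 6PP replicates at left and well-watered polymer replicates at right (1 point per gene, line at the median). The medians are 0.48 and 0.60 in the replicates numbered 1 and -0.73 and -0.54 in those numbered 2.

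The widest spread belonged to a pair of adjacent genes on chromosome 6, PHAVU_006G1073001g (4 exons, 22405590 to 22407394) and PHAVU_006G1073000g (1 exon, 22408345 to 22408863), both on the plus strand. PHAVU_006G1073001g had 190, 14.5 and 27.3 TPM in well-watered 6PP replicates 1, 2 and 3 and 190, 14.4 and 39.8 TPM in well-watered polymer replicates 1, 2 and 3. PHAVU_006G1073000g had 199, 11.9 and 21.9 TPM in the same 6PP replicates and 143, 11.3 and 32.2 TPM in the polymer replicates. Both were high in replicate 1 of each coating. Under drought they had 1 and 2 reads in 6PP replicate 3, and between 0 and 13 reads in each drought polymer library, so all drought values lay far below even the lowest watered one.

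The 200 genes were short and had few exons. A single exon was annotated for 58 (29%, beside 12.4% of the 13149 genes) and 10 or more exons for 11 (5.5%, beside 23.6%), with a median of 3 exons for the 200 and 5 for the 13149. The median length was 2038 bases for the 200 and 3750 bases for the 13149 as gene, and 1327 and 1729 bases as exons. Genes with 2 or more exons were also shorter, with a median of 2671 bases among the 200 and 4123 bases among the 13149. Single-exon genes were 38% of the 50 most lowered, 26% of the next 50, 22% of the 50 after those and 30% of the last 50, so the share was above 12.4% throughout the ranking.

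The level that remained was compared between classes of exon number, as a description. In drought 6PP replicate 3 the median was 0.349 TPM for the 58 genes with 1 exon, 0.205 TPM for the 82 with 2 to 4 exons and 0.428 TPM for the 60 with 5 or more. Their median folds below the well-watered mean were 87.9, 62.4 and 76.8. Over all single-exon genes of the 13149 the median fold lower in drought 6PP replicate 3 was 1.23, and over those with 2 or more exons it was 1.16. At least 100-fold lower there were 32 of the 1634 single-exon genes (1.96%) and 87 of the 11515 with 2 or more exons (0.756%). Of the 32, 27 were of the 200. Of the 87, so were 31 with 2 to 4 exons and 22 with 5 or more. The choice thus shaped both shares, and nothing is read from their difference. TPM is corrected for length, but a short gene collects fewer reads at a given TPM.

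In genes with introns, reads on introns can be set against all reads of the gene. Introns held 13.3% of the reads of such genes among the 200 in drought 6PP replicate 3 and 6.93%, 7.54% and 5.40% in drought polymer replicates 1, 2 and 3, against 5.07% to 6.28% in well-watered leaves. For the 13149 genes the share was 8.81% in drought 6PP replicate 3 and 5.36% to 6.21% in drought polymer, against 5.07% to 6.62% in well-watered leaves. A single gene carried much of the value in the drought 6PP library. PHAVU_011G010600g (7 exons) had 1717 of the 3481 intron reads of the group in drought 6PP replicate 3 and 201, 293 and 54 intron reads in drought polymer, against 174 to 483 in well-watered leaves. Without it the share at the 200 genes was 7.23% in drought 6PP replicate 3, under the 8.81% of the 13149 genes, and 5.22% to 6.40% in drought polymer, against 5.05% to 6.27% in well-watered leaves.

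**Figure D5:**
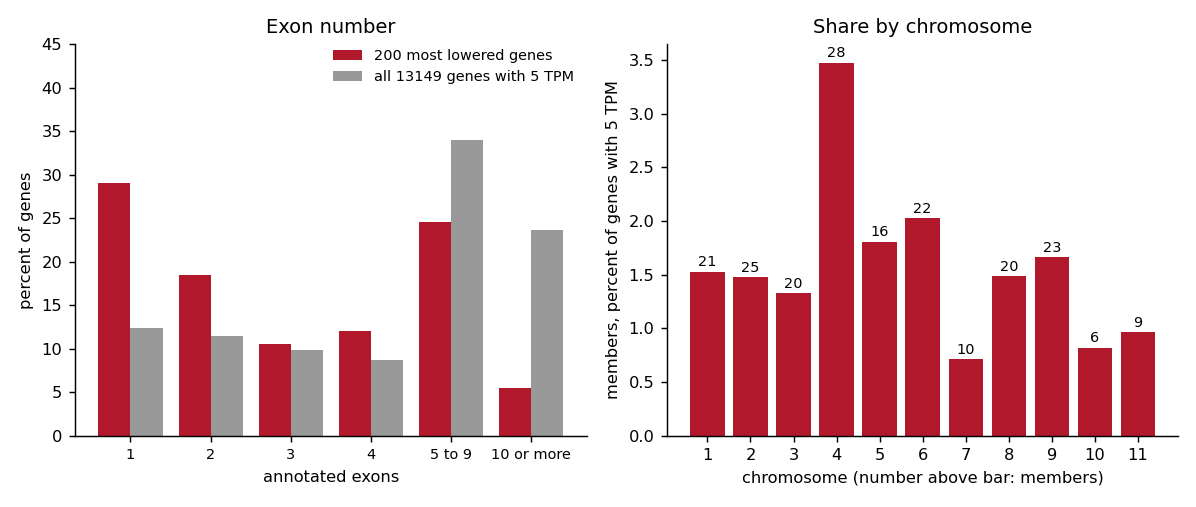
At left, percent of genes in classes of annotated exon number for the 200 genes and for all 13149 genes with at least 5 TPM; at right, the 200 genes as percent of the genes with at least 5 TPM on each chromosome, with their number above the bar. Single-exon genes are 29% of the 200 and 12.4% of the 13149, and the share on chromosome 4 is 3.47%.

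On the chromosomes the 200 genes were spread over all 11, and chromosome 4 held the most. There, 28 of the 806 eligible genes were among the 200 (3.47%), while the other chromosomes ranged between 0.713% on chromosome 7 and 2.03% on chromosome 6. With its listed length divided into 4 equal stretches, the one between 22.96 and 34.44 Mb held 10 of the 200 among only 49 eligible genes (20.4%), and the one before it 0 among 80. Of these 10, 9 have a single exon. With genes of under 80% uniquely placed reads set aside, chromosome 4 had 22 of 793 (2.77%) and that stretch 5 of the 200. Chromosome 4 held 16 of the 200 lowest genes, in place of 28, when at least 10 TPM was asked in each well-watered library. No count of eligible genes goes with the 5 or with the 16, so neither has a share to set beside 20.4% or 3.47%.

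Reads shared between copies mattered in that stretch. Under 80% of well-watered reads were uniquely placed for 8 of the 200 (4%, beside 0.700% of the 13149), and 6 of the 8 are on chromosome 4. The group of PHAVU_004G093000g, PHAVU_004G093100g and PHAVU_004G093200g was the longest run of neighbours in gene order, between 25161984 and 25227286 on chromosome 4, plus strand. Uniquely placed were 64.8%, 69.6% and 27.0% of their reads in that order. PHAVU_004G093100g had 0.0438 TPM in drought 6PP replicate 3, from 1 read, and 2.43, 6.60 and 4.84 TPM in drought polymer, against 99.5 to 171 TPM in well-watered leaves. How many of these genes are separate transcripts is uncertain.

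The most abundant of that stretch was PHAVU_004G091600g (1 exon, chromosome 4, 24039458 to 24040673, minus strand), with 43.4% of its reads uniquely placed. It had 1.12 TPM in drought 6PP replicate 3 and 40.9, 61.9 and 75.8 TPM in drought polymer, against 952 to 1552 TPM with a median of 1270 TPM in well-watered leaves. Like PHAVU_002G154500g, it was over 1000-fold lower in drought 6PP replicate 3 (1039 and 1030-fold) and far less lowered in drought polymer (21.3 and 49.7-fold). PHAVU_004G096500g, which had only uniquely placed reads, went the other way, with 3.89 TPM in drought 6PP replicate 3 and 0.317, 1.33 and 0.749 TPM in drought polymer, against 26.0 to 46.7 TPM in well-watered leaves.

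Some of the 200 stood next to each other in gene order. They formed 8 runs of adjacent genes, 7 of them pairs, with 17 genes in all. The same count was not made for other genes, so whether this is many or few was not tested. Besides those described, PHAVU_004G014100g lay 1290 bases before PHAVU_004G014200g and had 0.968 TPM in drought 6PP replicate 3 and 1.16, 1.45 and 1.51 TPM in drought polymer, against 22.1 to 33.6 TPM in well-watered leaves, a level far under that of its neighbour. PHAVU_002G008300g and PHAVU_002G008400g, on opposite strands of chromosome 2, were 46.4 and 223-fold lower in drought polymer. PHAVU_005G129400g had 0 reads in drought 6PP replicate 3 and 40, 21 and 32 in drought polymer, and so was at least 206-fold lower in drought 6PP replicate 3 than in well-watered leaves, while the adjacent PHAVU_005G129500g had 3, and 36, 1 and 10 reads.

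The remaining pairs, like that on chromosome 6, carry identifiers that differ only in the last digit before the letter. PHAVU_004G0983001g and PHAVU_004G0983000g stood 190 bases apart on chromosome 4, both with 1 exon. PHAVU_004G0983001g had 0.894 TPM in drought 6PP replicate 3 and 1.11, 1.60 and 4.00 TPM in drought polymer, against 46.9 to 76.0 TPM in well-watered leaves. PHAVU_004G0983000g had 1.39 TPM in drought 6PP replicate 3 and 2.63, 2.53 and 5.51 TPM in drought polymer, against 8.12 to 95.6 TPM in well-watered leaves. Well-watered 6PP replicate 1 was the low value of the second gene, and the first was not low there. PHAVU_008G2905001g and PHAVU_008G2905000g on chromosome 8 were 23.9 and 26.7-fold lower in drought polymer and 48.9 and 70.7-fold lower in drought 6PP replicate 3.

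A gene beside the 200 with at least 5 TPM and a ratio as low would itself have been taken, unless the study names it. A smaller decline of such genes in drought polymer is thus set by the choice. The 193 neighbouring genes with at least 5 TPM in well-watered leaves that were not of the 200 had a median log2 ratio of -0.34 in drought 6PP replicate 3 and 0.03 in drought polymer, relative to well-watered leaves. The other 12756 genes had medians of -0.20 in drought 6PP replicate 3 and 0.12 in drought polymer. At least 2-fold lower in drought 6PP replicate 3 were 35.2% of the neighbours, beside 23.8% of the other genes. In drought polymer these shares were 20.7% and 14.0%. The differences were not tested. Strand showed nothing particular, with 100 of the 200 on the minus strand (50%, beside 48.9%).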

How the data were processed

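The authors trimmed and aligned paired reads in CLC Genomics Workbench, on the BAT93 genome according to their methods, while no assembly is named in the deposited tables. Per gene the authors deposited TPM values and whole-number counts of total, unique, exon and intron reads, without normalization. The drought 6PP replicate 1 file (12 unlabelled tables) was not used. Of the 2 tables of replicate 2, 1 equals replicate 3 in every cell and was counted with it as 1 sample, and the other holds 1033823623 gene reads and was not used. The plan had assumed 12 usable libraries.

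The 200 genes and the lists were chosen with earlier results of these data known. Ratios used a pseudocount of 0.1 TPM (Python 3.11.15, pandas 2.3.3); folds of genes with 3 or fewer reads came from counts, with a floor of 3 reads. Counts of total gene reads were fitted in edgeR 4.0.16 (R 4.3.3) with TMM and filterByExpr, and the same fit was also run on simulated data. Strand was not stated for the counting, so overlapping and antisense genes are uncertain. P-values measure the spread between pools of 5 plants. Genes named are the 10 lowest ratios, the 5 most abundant, the 5 highest and 5 lowest in drought 6PP replicate 3, those beside the limit, adjacent ones and those with a symbol; genes at 0 reads, of shared reads, PHAVU_011G010600g, PHAVU_008G121000g, PHAVU_004G091600g, PHAVU_004G096500g and TIP1:1 were named after their values were seen. Gene lists by product name could not be applied. Alternatives were RLE and upper-quartile scaling, DESeq2 1.42.0, the likelihood ratio test of edgeR, exon or unique reads, no filter, a replicate block, leaving out libraries, another pseudocount, other minimum levels and TMM-scaled CPM.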

Additional observations from a re-analysis of the deposited data

Results flagged for a closer look

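PHAVU_008G279700g, the named gene with 20 exons, lay on opposite sides of the polymer plants in the 2 water regimes. Under drought, 6PP replicate 3 had 6.42 TPM and the polymer replicates had 0.801, 1.14 and 1.45 TPM, a log2 difference of 2.40 with 6PP higher. In well-watered leaves the 6PP replicates had 20.3, 18.3 and 24.6 TPM and the polymer replicates 25.8, 28.7 and 25.8 TPM, so that 6PP was lower in every library. The difference between the regimes was not tested, since drought 6PP has 1 library. Such opposite sides were found for 4 of the 200 genes (2%), beside 3.23% of the 13149 genes with at least 5 TPM in each well-watered library.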

How the results depend on the processing

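The count of the 200 genes called between well-watered 6PP and polymer leaves was 0 in all 16 alternatives, among them RLE scaling, DESeq2, exon reads and each library left out (range 0 to 0). With a replicate block it was also 0, and 8 of the 200 had an unadjusted edgeR p under 0.05, beside 1146 of all 22398 genes. Over all genes, replicate numbers did not pair the libraries closely. Same-numbered well-watered correlations between the coatings were 0.09, 0.16 and -0.02, and differently numbered ones ran between -0.15 and 0.03. The median log2 ratio of drought 6PP replicate 3 to well-watered leaves was -4.36 with a pseudocount of 1 TPM, -6.04 on TMM-scaled CPM of total reads and -6.02 on that of unique reads, and -6.30 to -6.16 with each well-watered library left out. The drought polymer median was -4.10 with a pseudocount of 1 TPM, and -5.40 to -5.05 in left-out libraries. Adding 1 TPM pulls low levels together by construction, and the cause of the other shifts was not tested. At least 2-fold lower in drought 6PP replicate 3 were 199 to 200 genes in all 9 alternatives, of which unique reads and the 6 left-out libraries were added after the data were seen.

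Of the 200 genes, 147 to 194 were chosen again under the 8 other settings of the rule (187 to 189 without a drought polymer library). Settings for the calls of the rule contrast, exon share and chromosome were also added then. The rule contrast gave 165 to 200 calls among the 200, while between 976 and 3620 of all genes tested were called lower, and nothing is read from these counts. Single-exon genes were 28% to 30.5% of each list (28% to 30.5% without a library), and chromosome 4 held 16 genes when 10 TPM was asked in each well-watered library, and 24 to 26 without a drought library. Depth limits the drought levels, with a median of 12 reads a gene in drought 6PP replicate 3.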
